A study of Mus musculus with 8 samples.

Results

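The genes described are the collagen and laminin chains of the mouse testis, chosen by name alone as every gene whose symbol has the form Col-number-a-number or Lam-letter-number with the letter a, b or c. The rule found 55 genes among the 23983 genes with an FPKM value, 44 of them collagen chains and 11 of them laminin chains. RNA-seq was made from pieces of whole testis of C57BL/6J mice at day 12 (d12), d16 and d24 after birth and from adult testis, whose age in days the labels do not give. No group carried a transgene, a mutation or a treatment, each stage was 1 library, and nothing in the labels says whether a library came from 1 animal or several. H3K27Ac ChIP-seq of the same 4 stages belongs to the series and is not analysed here. Values are FPKM, fragments per kilobase of transcript with a scaling factor for each library, so that levels can be set side by side between genes of a library. Ratios between stages depend further on how libraries are scaled to each other, and values under other scalings are given below.

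Collagens are secreted proteins built of chains wound around each other. Fibrillar collagens pack into the banded fibres that give connective tissue its tensile strength, whereas type IV collagens form the flexible sheet of a basement membrane together with laminins, which are made of an alpha, a beta and a gamma chain. In the testis a basement membrane encloses each seminiferous tubule under the Sertoli cells and spermatogonia, peritubular myoid cells surround it, and fibrillar collagens lie around the tubules and in the interstitium. Germ cells fill the tubules as the first wave of spermatogenesis proceeds after birth, from meiosis to round and then elongating spermatids.

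The 55 chains were placed in classes. There are 11 fibrillar chains, 6 type IV chains and 11 laminin chains, and the last 2 classes together are called basement membrane chains here. The others are 9 fibril-associated collagens with interrupted helices (FACIT), 6 chains of the beaded-filament collagen VI, 3 multiplexin or anchoring-fibril chains, 3 network-forming chains, 4 transmembrane chains and 2 remaining collagens. A mean of at least 1 FPKM over the 4 libraries was reached by 37 of the 55 chains, and by 13901 of all genes. Col28a1 lay just inside this limit with a mean of 1.00 FPKM, and Col6a6 just outside with 0.924 FPKM. The 37 are 8 fibrillar, 6 type IV, 8 laminin, 7 FACIT, 5 collagen VI and 2 multiplexin chains, plus Col28a1. None of the network-forming or transmembrane chains reached it.

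Of the 37 chains, 27 were at least 2-fold lower in adult testis than at d12, on FPKM with 0.1 added, against 23.1% of all genes tested. At least 2-fold higher were 6 chains, against 35.7% of all genes. The remaining 4, Col6a4, Col6a5, Col12a1 and Col27a1, differed by less than 2-fold. The median log2 difference between adult and d12 was -2.17 over the 37 chains and 0.20 over all genes tested. With 1 library per stage there is no spread between animals, so no difference was tested, and every interval given is a 95% interval that covers the counting of fragments only.

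Together the 55 chains held 935.7 FPKM at d12, 584.7 at d16, then 267.1 at d24 and 216.0 in the adult. As a share of all FPKM this was 0.330% at d12, 0.190% at d16, then 0.0565% at d24 and 0.0328% in the adult. The adult sum was 0.231 times the d12 sum (0.226 to 0.236). Within a library, FPKM is proportional to a share of its RNA, by a factor that differs between libraries. As recovered here, 1 fragment on a transcript of 1 kb stood for 0.0799 FPKM at d12 and 0.112 in the adult. Yet more fragments fell on genes in the adult, 1.27e+07 against 9.33e+06 at d12. The deposited values were thus not scaled by the depth on genes alone, and their ratios between stages are not ratios of shares. In bulk tissue, fewer cells of a type, less RNA per cell and more RNA from other cells cannot be told apart.

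The interval from d16 to d24 held the most large differences. Between d12 and d16, 6 of the 37 chains were at least 2-fold lower at the later stage (3.67% of all genes) and 3 at least 2-fold higher (12.6% of all genes). Between d16 and d24, 21 chains were at least 2-fold lower (8.45% of all genes) and 3 at least 2-fold higher (27.5% of all genes). Between d24 and adult, 5 chains were at least 2-fold lower (2.2% of all genes) and 4 at least 2-fold higher (11.4% of all genes). From each stage to the next, 24 of the 37 chains were lower every time as deposited, and 3 were higher every time. Among the 24 were 5 of the 8 fibrillar and 13 of the 14 basement membrane chains. These counts take the sign alone, also where the interval of a step includes 1, as for Lamb2 at d16 over d12, 0.953 (0.882 to 1.03). They depend on how libraries are scaled to each other, and the matching share of all genes was not counted.

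**Figure D1:**
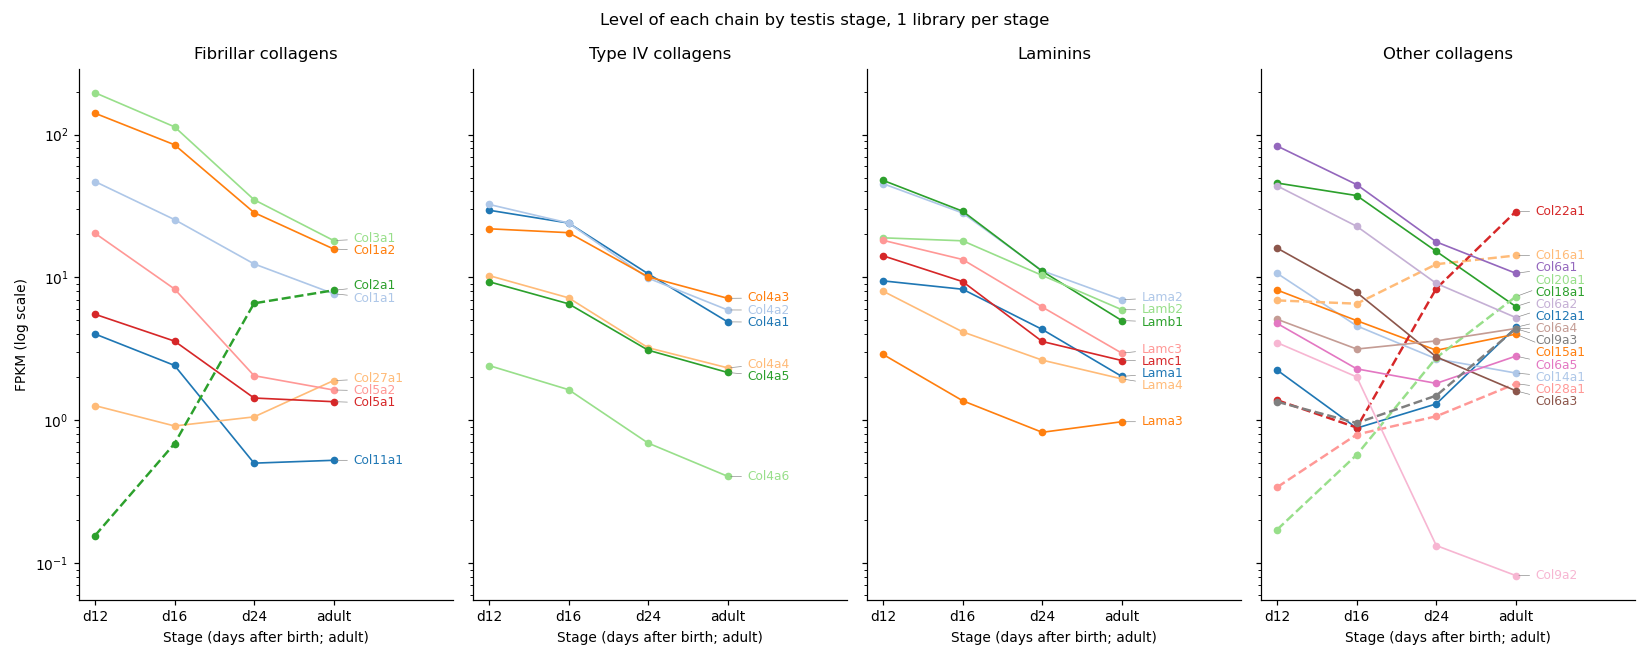
FPKM of the 37 chains (log scale) at d12, d16, d24 and in adult testis, spaced evenly and with 1 library per stage; dashed lines mark the 6 chains at least 2-fold higher in adult testis than at d12. All 6 type IV and all 8 laminin lines end below their d12 level, whereas Col2a1 among the fibrillar chains and Col22a1, Col20a1, Col16a1, Col28a1 and Col9a3 among the others end above it.

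Fibrillar chains were dominated by the genes of types I and III. Col3a1 (chr1:45311538-45349706, GRCm38.p6, as for all positions here), whose product forms type III collagen in fine reticular fibres, was read at 196.4 FPKM at d12, 113.3 at d16, then 35.0 at d24 and 18.1 in the adult. It was the highest of all chains at d12, and its adult level was 0.0923 times that at d12 (0.0862 to 0.0987). Col1a2 (chr6:4505618-4541543), which encodes the second chain of type I collagen, was read at 141.1, 84.8, 28.4 and 15.8 FPKM in the same order, an adult level of 0.112 times that at d12 (0.104 to 0.121). Col1a1 (chr11:94936224-94953042), which encodes the major chain of type I collagen, was read at 46.9, 25.4, 12.4 and 7.69 FPKM, or 0.164 times (0.147 to 0.181). The 3 genes held 91.8% of the fibrillar FPKM at d12, 92.7% at d16, then 85.8% at d24 and 74.3% in the adult.

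Type V collagen starts and limits the growth of type I fibrils. Its chain gene Col5a2 was read at 20.4 FPKM at d12, 8.30 at d16, then 2.05 at d24 and 1.63 in the adult. Of the fibrillar chains with a mean of at least 1 FPKM it had the lowest adult level relative to d12, 0.0799 times (0.0643 to 0.0981). Col5a1 was read at 5.52, 3.58, 1.43 and 1.35 FPKM, so that the last 2 stages differed little, at 0.943 times (0.742 to 1.19). Col11a1, a chain of type XI collagen, was likewise at a plateau after d24, with 4.02, 2.42, 0.501 and 0.524 FPKM.

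Col2a1 (chr15:97975602-98004724), the gene of the main fibrillar collagen of cartilage, ran the other way. It was read at 0.156 FPKM at d12, 0.686 at d16, then 6.58 at d24 and 8.12 in the adult, on 10, 43, 728 and 364 fragments. The adult level was 52.2 times that at d12 (27.5 to 107.5), the largest ratio among the 37 chains. From the last place among the 11 fibrillar chains at d12, Col2a1 moved to the third place in adult testis, where it held 14.5% of the fibrillar FPKM and its interval of 7.30 to 8.99 FPKM overlapped that of Col1a1, 6.95 to 8.46 FPKM. Col27a1, a fibrillar chain of cartilage and developing tissues, was read at 1.27, 0.912, 1.06 and 1.90 FPKM and was thus lowest at d16.

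The promoter of Col1a2 is shown because this gene, with Col3a1, held most of the fibrillar signal. The window runs from 250 bases before the RefSeq start to 50 after it (GRCm38.p6, chr6:4505368-4505667, plus strand), and capitals mark matches to the CCAAT motif and to the GC box (GGGCGG) on either strand.
Col1a2: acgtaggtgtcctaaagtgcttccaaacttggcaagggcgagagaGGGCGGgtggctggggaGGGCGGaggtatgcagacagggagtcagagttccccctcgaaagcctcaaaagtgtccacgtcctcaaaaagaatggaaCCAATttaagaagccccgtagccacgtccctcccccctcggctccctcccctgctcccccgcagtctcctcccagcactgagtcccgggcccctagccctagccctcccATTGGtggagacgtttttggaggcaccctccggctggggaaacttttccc
It held 13 CpG dinucleotides, 2 matches to the former and 2 to the latter, and none of the matches overlapped another. Of all 32851 promoter windows of this length in the table, 37.4% held CCAAT, 35.7% held the GC box and 13.6% held the TATA motif (TATAAA) on either strand, with a median of 7 CpG. Windows were found for 40 of the 55 chains, 44 windows in all, of which 31.8% held CCAAT, 59.1% held the GC box and 11.4% held the TATA motif, with a median of 10.5 CpG. A match is a run of letters and says nothing of a factor bound there.

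Type IV collagen genes lie in pairs on opposite strands, with the starts of both genes of a pair close together. Col4a1 and Col4a2 (chromosome 8) encode the chains found in nearly every basement membrane, and their curated RefSeq transcripts overlap by 22 bases at their starts. Col4a3 and Col4a4 (chromosome 1) encode chains of a network known from kidney and testis, and 71 bases lie between the starts of their curated transcripts. Between the starts of Col4a5 and Col4a6 (chromosome X) lie 1342 bases. The windows of Col4a2 (chr8:11312555-11312854, plus strand) and of Col4a4 (chr1:82586800-82587099, minus strand) are shown because each holds the start of both genes of its pair, with the same motifs in capitals.
Col4a2: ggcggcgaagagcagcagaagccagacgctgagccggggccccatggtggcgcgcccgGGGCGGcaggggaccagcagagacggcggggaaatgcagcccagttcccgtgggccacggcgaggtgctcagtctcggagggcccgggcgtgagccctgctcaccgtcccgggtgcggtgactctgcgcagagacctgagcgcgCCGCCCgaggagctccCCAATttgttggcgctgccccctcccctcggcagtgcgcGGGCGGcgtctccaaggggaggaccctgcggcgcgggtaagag
Col4a4: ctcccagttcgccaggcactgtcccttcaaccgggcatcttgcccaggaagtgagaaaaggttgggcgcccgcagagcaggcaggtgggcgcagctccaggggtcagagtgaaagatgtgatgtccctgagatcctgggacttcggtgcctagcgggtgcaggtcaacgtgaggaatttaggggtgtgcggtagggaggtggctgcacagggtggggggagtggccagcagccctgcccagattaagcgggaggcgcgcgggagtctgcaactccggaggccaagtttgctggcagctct
The Col4a2 window held 33 CpG, 1 match to CCAAT and 3 to the GC box. The Col4a4 window held 14 CpG and no match to any of the 3 motifs.

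Levels within the pairs were close in one case and apart in the others. Col4a1 was read at 29.5 FPKM at d12, 24.02 at d16, then 10.6 at d24 and 4.88 in the adult, and Col4a2 at 32.4, 24.03, 9.88 and 5.92 FPKM. Their ratio was 0.911 at d12 (0.862 to 0.962), 1.00 at d16 (0.939 to 1.06), 1.07 at d24 (0.998 to 1.15) and 0.825 in the adult (0.705 to 0.965). Col4a3 was read at 21.9, 20.6, 10.1 and 7.14 FPKM and its partner Col4a4 at 10.3, 7.19, 3.22 and 2.33 FPKM. Col4a3 exceeded Col4a4 at every stage, by 2.13 times at d12 (1.98 to 2.29) and by 2.86 to 3.13 times at the later stages. Col4a5 was read at 9.32, 6.53, 3.09 and 2.16 FPKM and Col4a6, the lowest type IV chain throughout, at 2.41, 1.64, 0.692 and 0.405 FPKM. In the Col4a5 and Col4a6 pair the ratio lay between 3.86 and 5.33 with overlapping intervals. Over all annotated transcripts of a gene, some of which start further upstream, Col4a1 overlaps Col4a2 by 85 bases and Col4a3 overlaps Col4a4 by 114 bases. These stretches can share reads, and whether the FPKM computation used strand is not stated.

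All 6 type IV chains were at least 2-fold lower in adult testis, but not by the same factor. The adult level was 0.165 times that at d12 for Col4a1 (0.146 to 0.187) and 0.182 times for Col4a2 (0.162 to 0.204), against 0.326 times for Col4a3 (0.297 to 0.358). The ratio of Col4a3 to Col4a1 was 0.741 at d12 (0.701 to 0.784), 0.856 at d16 (0.806 to 0.910), 0.952 at d24 (0.890 to 1.02) and 1.46 in the adult (1.27 to 1.69). Col4a3 was therefore below Col4a1 at d12 and above it in adult testis. The summed FPKM of Col4a3 to Col4a6 over that of Col4a1 and Col4a2 was 0.709, 0.748, 0.835 and 1.11 in the 4 stages, a factor of 1.57 from d12 to adult (1.41 to 1.76).

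Among laminin alpha chains, Lama2 was the highest at every stage. Lama2, the alpha chain of the laminin of muscle basement membranes, was read at 45.3 FPKM at d12, 28.2 at d16, then 11.1 at d24 and 6.99 in the adult. Lama1, the alpha chain prominent in embryonic basement membranes and known from the seminiferous tubule, was read at 9.45, 8.26, 4.32 and 2.03 FPKM. The ratio of Lama2 to Lama1 was 4.79 at d12 (4.49 to 5.11), 3.42 at d16 (3.18 to 3.67), 2.58 at d24 (2.39 to 2.78) and 3.45 in the adult (2.91 to 4.08). Lama4, the alpha chain of vessel walls, was read at 8.004, 4.15, 2.63 and 1.95 FPKM. Lama3, an alpha chain of epithelia, was read at 2.89, 1.37, 0.823 and 0.976 FPKM and was the only one of the 14 basement membrane chains not lower at every step. Its adult level was 1.19 times that at d24 (0.881 to 1.59), an interval that includes 1.

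The beta chains crossed over. Lamb1 (chr12:31265146-31329644), the beta chain of early laminins, was read at 47.8 FPKM at d12, 29.1 at d16, then 11.04 at d24 and 4.99 in the adult. Lamb2 (chr9:108479847-108490530), the beta chain of mature muscle and kidney laminins, was read at 18.9, 18.0, 10.3 and 5.94 FPKM. The ratio of Lamb1 to Lamb2 was 2.53 at d12 (2.37 to 2.69), 1.61 at d16 (1.503 to 1.73), 1.07 at d24 (0.991 to 1.15) and 0.839 in the adult (0.710 to 0.992). The factor between d12 and adult was 0.332 (0.278 to 0.397). Lamb1 thus exceeded Lamb2 at d12 and d16, and the order was the reverse in adult testis.

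Both gamma chains that passed the limit were lower in adult testis. Lamc1, the gamma chain of most laminins, was read at 14.2, 9.34, 3.56 and 2.62 FPKM, and Lamc3 at 18.2, 13.3, 6.20 and 2.95 FPKM. Summed over their genes, alpha chains held 2.05, 1.86, 1.95 and 2.09 times the FPKM of gamma chains in the 4 stages, and beta chains 2.05, 2.05, 2.24 and 2.21 times. These sums kept nearly the same proportion at all 4 stages, while the chains within the beta class did not.

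**Figure D2:**
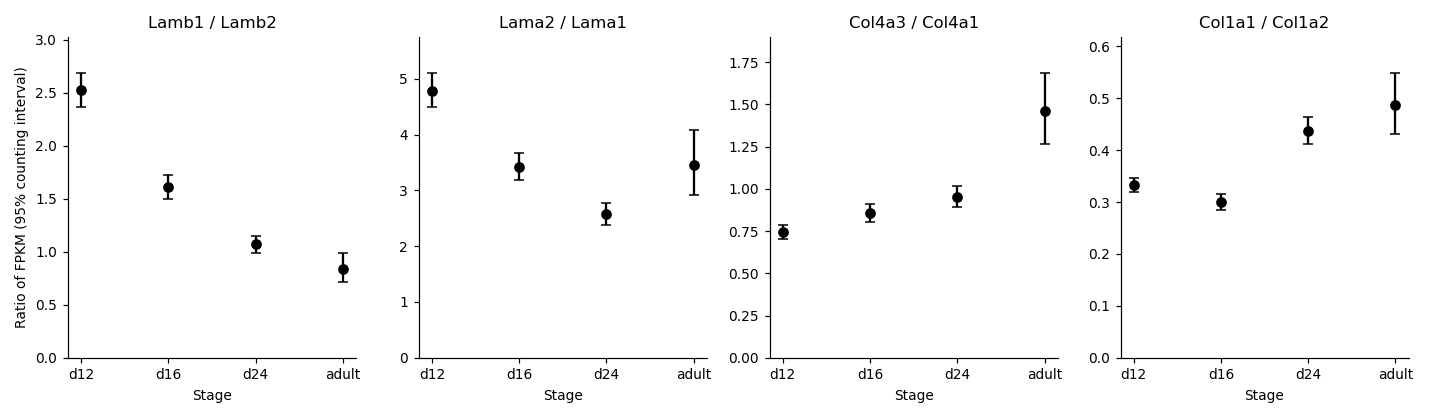
Ratio of FPKM between chains (points, with bars for 95% counting intervals) at d12, d16, d24 and in adult testis, 1 library per stage. Lamb1 over Lamb2 went from 2.53 to 0.839 and Col4a3 over Col4a1 from 0.741 to 1.46, both crossing 1, whereas Lama2 over Lama1 stayed above 2.5 and Col1a1 over Col1a2 below 0.5.

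Lamb3, Lama3 and Lamc3 are chains described in a laminin at the contact between Sertoli cells and elongating spermatids in rodents. Lamb3 (chr1:193294353-193343878) was below the limit, with a mean of 0.799 FPKM. It was read at 0.0199 FPKM at d12, 0.0797 at d16, then 0.975 at d24 and 2.12 in the adult, on 1, 4, 86 and 76 fragments. The adult level was 107 times that at d12, with an interval of 18.6 to 4271 that reflects the single fragment at d12. Lama3 and Lamc3, in contrast, were at 0.338 times (0.258 to 0.443) and 0.162 times (0.141 to 0.186) their d12 level in adult testis. Lamb3 is singled out here with its values known.

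Set against each other, fibrillar chains started above basement membrane chains and ended level with them. The 11 fibrillar chains held 418.9 FPKM at d12, 241.2 at d16, then 88.4 at d24 and 56.0 in the adult. The 17 basement membrane chains held 271.8, 196.9, 89.3 and 54.2 FPKM. The ratio of the sums was 1.54 at d12 (1.52 to 1.57), 1.23 at d16 (1.20 to 1.25), 0.990 at d24 (0.965 to 1.02) and 1.03 in the adult (0.984 to 1.09). From d24 to adult the factor was 1.04 (0.988 to 1.11), so the shift lay between d12 and d24.

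The adult sum of fibrillar chains was 0.134 times that at d12 (0.129 to 0.139), and that of basement membrane chains 0.199 times (0.192 to 0.207). The factor between both ratios was 0.671 (0.636 to 0.708). By chain, the median log2 difference between adult and d12 was -2.66 over the 8 fibrillar chains and -2.24 over the 14 basement membrane chains, beside 0.20 over all genes tested. All 14 basement membrane chains and 6 of the 8 fibrillar chains were at least 2-fold lower.

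Single genes set this ratio. Without the highest chain of each class, Col3a1 and Lamb1, it was 0.993 at d12, 0.762 at d16, then 0.683 at d24 and 0.771 in the adult, so that fibrillar chains no longer exceeded basement membrane chains at d12 or d16, while the d12 value stayed above the later ones. Without Col2a1, an alternative chosen after seeing the data, the ratio was 0.916 at d24 and 0.884 in adult testis.

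**Figure D3:**
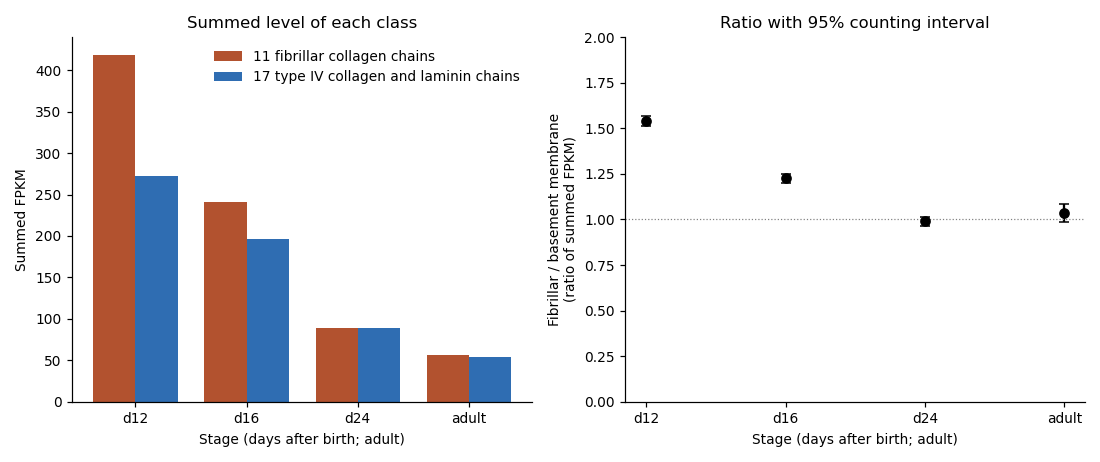
Left, summed FPKM of the 11 fibrillar chains and of the 17 type IV collagen and laminin chains at each stage (bars from 0). Right, the ratio of the sums with its 95% counting interval, 1.54 at d12 and 1.03 in adult testis; the dotted line marks equal sums.

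Collagen VI forms beaded filaments between fibres and basement membranes. Col6a1 to Col6a3 were much lower in adult testis than at d12, and Col6a4 and Col6a5 were within 2-fold. Col6a1 (chr10:76708792-76726044) was read at 83.1 FPKM at d12, 44.6 at d16, then 17.7 at d24 and 10.7 in the adult. Its neighbour Col6a2 (chr10:76595756-76623630) had an adult level of 0.120 times that at d12 (0.103 to 0.138), and Col6a3 on chromosome 1 of 0.1003 times (0.0838 to 0.119). The ratio of Col6a1 to Col6a2 lay between 1.90 and 2.04 at all 4 stages. Col6a4, Col6a5 and Col6a6 lie side by side on chromosome 9 (chr9:105689417-106096828 from Col6a6 to Col6a4). In adult testis Col6a4 was at 0.862 times (0.743 to 1.00) and Col6a5 at 0.591 times (0.505 to 0.690) the d12 level, but Col6a6, below the limit, was at 0.128 times (0.0711 to 0.221).

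Multiplexins carry heparan or chondroitin sulphate and lie in basement membrane zones. Col18a1, the source of endostatin, was read at 45.8, 37.4, 15.2 and 6.25 FPKM, an adult level of 0.136 times that at d12 (0.121 to 0.154). Col15a1 was read at 8.15, 4.98, 3.09 and 4.01 FPKM, or 0.491 times (0.414 to 0.581), and was lowest at d24. Counting both with Col7a1 among the basement membrane chains gave a ratio of fibrillar to basement membrane sums of 1.28 at d12 and 0.868 in adult testis.

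FACIT collagens, which sit on the surface of fibrils or at tissue junctions, had a higher sum in adult testis than at d12. Their 9 genes held 26.5 FPKM at d12, 16.8 at d16, then 30.5 at d24 and 63.9 in the adult. The adult sum was 2.41 times the d12 sum (2.27 to 2.56), or 1.04 times with each library set to an equal FPKM sum. Within these sums Col22a1 alone went from 1.38 FPKM at d12 to 28.9 in the adult. The sum without it was not computed, so the higher sum is not a trait of the class as a whole. The only other class with a higher adult sum was the pair Col26a1 and Col28a1, at 1.94 times (1.36 to 2.78) as deposited but 0.837 times with equal FPKM sums. Of the 7 that passed the limit, 4 were at least 2-fold higher (35.7% of all genes) and 2 at least 2-fold lower in adult testis (23.1% of all genes).

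Col22a1 (chr15:71795795-72150979), known from junctions such as that of muscle and tendon, was read at 1.38 FPKM at d12, 0.888 at d16, then 8.36 at d24 and 28.9 in the adult. It was the highest of all 55 chains in adult testis and 20.9 times its d12 level (17.2 to 25.7). Col20a1 (chr2:180983323-181017545) was read at 0.172, 0.573, 2.74 and 7.34 FPKM, 42.8 times (22.2 to 94.5), on only 9 fragments at d12. Col16a1, a FACIT of skin and cartilage fibrils, was read at 6.90, 6.55, 12.4 and 14.2 FPKM, 2.06 times (1.83 to 2.33). These 3 genes were higher at d24 than at d16, unlike the type IV and laminin chains above the limit.

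Col9a3 was read at 1.35, 0.956, 1.49 and 4.37 FPKM, 3.25 times (2.30 to 4.63). Its 3' end overlaps that of Tcfl5 on the other strand by 237 bases, and Tcfl5 was read at 17.1, 63.3, 193.7 and 237.1 FPKM in the same order. Without the use of strand, reads of both genes cannot be told apart there. Col9a2, another chain of the same cartilage collagen, had the lowest adult level relative to d12 of the 37 chains. It was read at 3.49, 2.01, 0.133 and 0.0817 FPKM, on 120, 69, 8 and 2 fragments, or 0.0234 times (0.0028 to 0.0864). Col9a1, below the limit, was read at 0.221 FPKM at d12 and 1.96 in adult testis. The 3 genes whose products assemble into type IX collagen thus did not move together.

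Col14a1, a FACIT of tendon and skin, was lower at every step, from 10.7 FPKM at d12 to 2.14 in adult testis. Col12a1, a related FACIT, was read at 2.24, 0.881, 1.301 and 4.47 FPKM, lowest at d16 and 1.99 times the d12 level in adult testis (1.73 to 2.30). Outside the FACIT class, Col28a1, a collagen with von Willebrand domains, was read at 0.340, 0.794, 1.07 and 1.80 FPKM, 5.31 times (3.12 to 9.48). As deposited, Col2a1, Col20a1 and Col28a1 were the 3 chains higher at every step. For Col28a1 the ratio of d24 to d16 was 1.34 (0.926 to 1.97), an interval that includes 1. With equal FPKM sums, Col28a1 was lower at d24 than at d16, and Col2a1 lower in the adult than at d24.

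The promoter of Col20a1 (chr2:180986285-180986584, plus strand) is shown as the sequence of 1 chain that was higher at each later stage. This window surrounds a start inside the gene, whose annotation begins further upstream at chr2:180983323.
Col20a1: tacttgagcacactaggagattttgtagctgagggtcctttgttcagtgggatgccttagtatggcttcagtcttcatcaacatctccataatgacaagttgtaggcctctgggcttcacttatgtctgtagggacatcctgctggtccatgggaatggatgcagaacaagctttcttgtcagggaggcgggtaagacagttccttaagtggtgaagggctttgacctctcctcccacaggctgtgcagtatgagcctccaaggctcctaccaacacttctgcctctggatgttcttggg
It held 1 CpG and no match to any of the 3 motifs. Only 3 of the 6 chains that were at least 2-fold higher had a window in the table, too few to describe the set. The other windows were unlike each other. That of Col16a1 held 24 CpG, 1 match to CCAAT and 2 to the GC box, and that of Col28a1 held 0 CpG and no match. Among chains that were lower, the window of Col3a1 also held 0 CpG, so the windows shown do not set higher chains apart from lower ones.

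**Figure D4:**
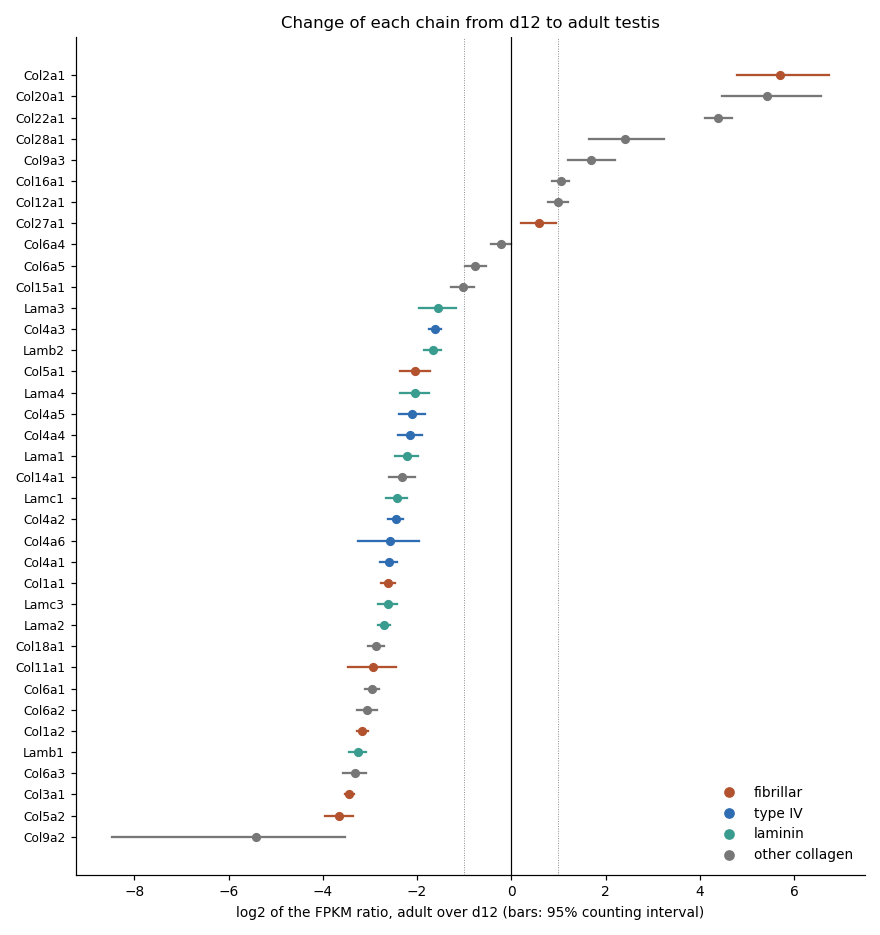
Ratio of the adult to the d12 level for the 37 chains on a log2 scale (points, with bars for 95% counting intervals), in order of the ratio; dotted lines mark 2-fold and colours the class. All type IV and laminin chains lie left of the 2-fold line, and Col2a1 with 52.2 times and Col9a2 with 0.0234 times lie at the ends.

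The 18 chains below the limit had means between 0.220 FPKM for Col19a1 and 0.924 FPKM for Col6a6. Among them Col5a3, a type V chain, was read at 2.15 FPKM at d12 and 0.166 in adult testis, and Lama5, the alpha chain of many adult basement membranes, at 1.06 and 0.443 FPKM. The network-forming chains Col8a1, Col8a2 and Col10a1 together held 2.35 FPKM at d12 and 1.47 in adult testis, and the transmembrane chains Col13a1, Col17a1, Col23a1 and Col25a1 together 5.65 and 2.71 FPKM. At these levels few fragments stand behind each value, for example 5 for Col10a1 and 5 for Col13a1 in adult testis.

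Other genes of the matrix were taken from lists. Collagen folding and processing enzymes with a mean of at least 1 FPKM numbered 17, of which 13 were at least 2-fold lower and 0 at least 2-fold higher in adult testis than at d12, against 23.1% and 35.7% of all genes tested. P4hb, which encodes protein disulphide isomerase, a subunit of the prolyl hydroxylase of collagen, was read at 195.0, 167.6, 94.2 and 83.3 FPKM. Plod2, a lysyl hydroxylase, was read at 41.0, 30.6, 12.7 and 6.73 FPKM. Serpinh1, the chaperone of procollagen, was read at 38.7, 21.7, 8.76 and 5.03 FPKM, an adult level of 0.130 times that at d12 (0.105 to 0.159). The summed FPKM of these enzymes in adult testis was 0.376 times that at d12 (0.362 to 0.390), a smaller difference than in either main class of chains.

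Of 14 other basement membrane components, 12 were at least 2-fold lower and 0 higher (23.1% and 35.7% of all genes). Sparc, a collagen-binding glycoprotein, was read at 345.6 FPKM at d12 and 153.4 in adult testis, Nid1, which links laminin to type IV collagen, at 32.5 and 10.2 FPKM, and Smoc2, a relative of Sparc, at 23.7 and 6.42 FPKM. Of 12 fibril-associated proteoglycans and glycoproteins, 11 were at least 2-fold lower and 0 higher, beside the same shares of all genes, 23.1% and 35.7%. Decorin (Dcn) was read at 95.1 and 31.8 FPKM, biglycan (Bgn) at 38.9 and 13.9 FPKM, and elastin (Eln) at 70.2 and 3.56 FPKM, an adult level of 0.0507 times that at d12 (0.0419 to 0.0606).

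Of 11 collagen and laminin receptors, 8 were at least 2-fold lower and 1 higher (23.1% and 35.7% of all genes). The syndecan Sdc4 was read at 149.4 FPKM at d12 and 41.5 in adult testis, the integrin beta chain Itgb1 at 90.2 and 25.2 FPKM, and dystroglycan (Dag1), a receptor of laminin alpha chains, at 25.1 and 9.79 FPKM. Itga1, the alpha chain of a collagen-binding integrin, was the higher one, with 4.61, 5.51, 8.47 and 12.9 FPKM, or 2.81 times (2.46 to 3.21). Itga2, the alpha chain of another collagen-binding integrin, lay just below the limit with a mean of 0.993 FPKM and was read at 0.227, 0.228, 0.777 and 2.74 FPKM, or 12.1 times (7.67 to 20.5). Of 6 genes of matrix turnover, 5 were at least 2-fold lower and 0 higher (23.1% and 35.7% of all genes). The inhibitor Timp3 was read at 48.8 and 19.0 FPKM and the membrane protease Mmp14 at 37.3 and 11.05 FPKM, whereas Timp2 was read at 31.5 and 31.7 FPKM. Timp4, an inhibitor below the limit, was read at 0.226 FPKM at d12, listed at 0 at d16, and read at 0.289 FPKM at d24 and 1.03 FPKM in the adult, 4.56 times its d12 level (2.09 to 12.1).

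Markers of the cell types that a testis holds were read in all libraries, and their part in the differences between stages was not tested. From d12 to adult, the summed FPKM of 6 Sertoli cell markers went from 181.9 to 64.2 (0.353 times) and that of 6 stromal fibroblast markers from 118.0 to 14.9 (0.127 times), beside 0.134 times for fibrillar and 0.199 times for basement membrane chains. Of the 6 Sertoli markers, 5 were at least 2-fold lower and Rhox5 was within 2-fold, and all 5 fibroblast markers above the limit were at least 2-fold lower. Endothelial markers were at 0.453 times and macrophage markers at 0.885 times their d12 sum. Of the 6 peritubular myoid markers, 4 were at least 2-fold lower, for example Acta2 with 112.9 and 34.2 FPKM, while Actg2 was read at 9.47 and 225.0 FPKM and set the sum at 1.19 times. Leydig cell markers were at 4.41 times their d12 sum.

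Markers of meiotic and later germ cells differed more between stages than those of the somatic cell types. Summed over 6 markers each, pachytene spermatocytes were read at 48.8 FPKM at d12 and 4808 in adult testis, round spermatids at 3.42 and 1073 FPKM, and elongating spermatids at 14.1 and 26774 FPKM. At d16 these sums were 839.6 FPKM for pachytene spermatocytes, 5.08 for round spermatids and 4.53 for elongating spermatids, the last below its d12 sum and the others above theirs. The 6 spermatogonia markers, by contrast, were at 0.215 times their d12 sum.

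**Figure D5:**
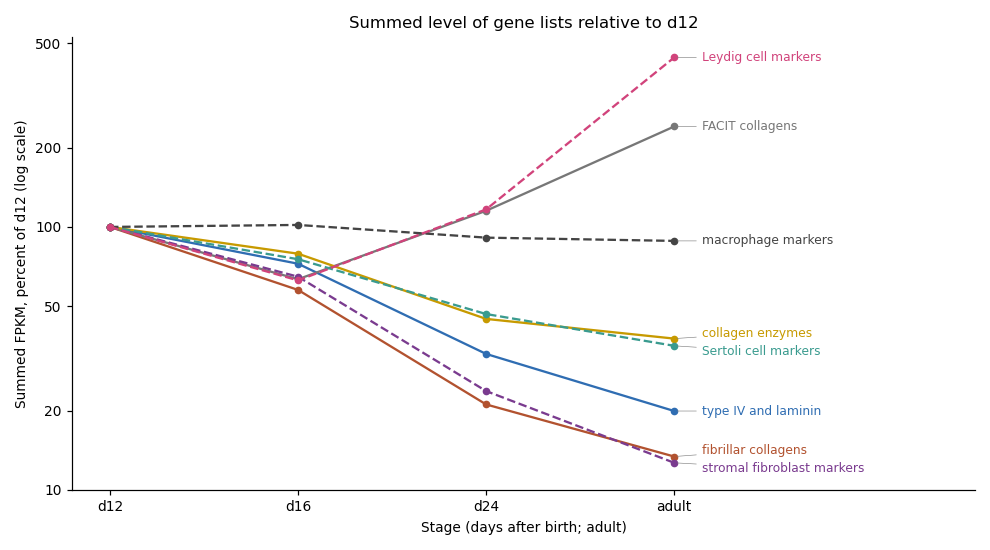
Summed FPKM of gene lists as a percent of their d12 sum (log scale) at d12, d16, d24 and in adult testis. Fibrillar chains ended at 13.4% and stromal fibroblast markers at 12.7%. Basement membrane chains ended at 19.9%, Sertoli markers at 35.3% and collagen enzymes at 37.6%. FACIT collagens, among which Col22a1 was the highest in the adult, ended at 241%, and Leydig cell markers at 441%.

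How libraries are scaled to each other bears on all of these ratios. FPKM summed to 283580 at d12, 307964 at d16, then 472726 at d24 and 659202 in the adult. With each library set to an equal sum, the median log2 difference of all genes between adult and d12 was -1.01, with upper-quartile scaling it was -0.72, and with division by the Sertoli markers it was 1.76, against 0.20 as deposited. In each of these 3 scalings 29 of the 37 chains lay below that median. Each scaling multiplies all genes of a library by the same factor, so chains and median shift nearly alike. The equal counts therefore cannot show whether the position of the chains below the median is stable. The numbers at least 2-fold lower and higher were 29 and 4 with equal sums, 29 and 4 with upper quartiles, and 14 and 9 with Sertoli markers. The shares of 23.1% and 35.7% of all genes hold for the values as deposited only. Shares under the other scalings were not counted. With equal sums the median gene was itself at least 2-fold lower, and with Sertoli markers at least 2-fold higher. Between adult and d12, directions turned for Col12a1, Col16a1 and Col27a1 with equal sums and for Col27a1 with upper quartiles. They turned for Col15a1, Col6a4, Col6a5 and Lama3 with Sertoli markers. With Sertoli markers the sums of collagen enzymes, other basement membrane components, receptors and turnover genes were at 1.13, 1.26, 1.01 and 1.42 times their d12 level instead of below it, whereas those of fibrillar and basement membrane chains were at 0.401 and 0.598 times. The ratios between chains or classes within a library do not depend on the scaling.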

How the data were processed

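Whole testis RNA of 4 stages was sequenced as strand-specific, paired-end libraries, 1 per stage. With RefSeq genes as a guide, the authors aligned them by TopHat2 2.1.0 (with Bowtie 1.1.2) to the GRCm38 genome, at most 1 alignment per pair. They deposited FPKM values from Cuffdiff (Cufflinks 2.2.1), which corrected for multi-mapped reads and sequence bias but not for effective length. Scaling between libraries and the use of strand at this step are not given in the sources used here. Where reads of near-identical or overlapping genes count depends on these steps.

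Chains were chosen by symbol and grouped into classes. The members and lists were chosen with earlier results of these data known. All 55 chains are accounted for, and from each other matrix list the 3 genes with the highest mean FPKM and any at least 2-fold higher in adult testis are named. P3h1, Colgalt1 and Adgre1 are listed in the table under the older symbols Lepre1, Glt25d1 and Emr1. Log2 differences and 2-fold counts used FPKM + 0.1 and a mean of at least 1 FPKM over the 4 libraries. Ratios carry no pseudocount.

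Fragments behind each value were recovered as FPKM times RefSeq transcript length. Between 91.3% and 92.3% of low values came within 0.05 of a whole number, and between 9.33e+06 (d12) and 2.50e+07 (d24) fragments fell on genes. Intervals are exact 95% Poisson or binomial intervals, or Poisson intervals on the log scale for sums, and cover counting error only. For Col18a1, Col6a2, Col6a3, Col6a6, Col9a1 and Lama3, whose transcripts differ in length, the mean length was used. No comparison was tested, because no stage has more than 1 library. Promoter windows and positions are from RefSeq (GRCm38.p6). Alternatives of scaling, pseudocount, filter, threshold and class were tried. Python 3.11.15, numpy 2.4.6, pandas 2.3.3, scipy 1.17.1 and matplotlib 3.10.9 were used, and scripts were tested on simulated data.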

Additional observations from a re-analysis of the deposited data

How the results depend on the processing

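Over 10 results, 54 alternatives were tried, of which 20 changed the value by less than its counting interval, or a count by at most 1.5 times, 32 moved it further and 2 turned its direction. For the median log2 differences, the interval used was as wide as the median counting interval of the single chains. The ratio of the adult to the d12 sum was, for fibrillar and basement membrane chains in turn, 0.0575 and 0.0857 with each library set to an equal FPKM sum, 0.0702 and 0.105 with upper-quartile scaling, 0.401 and 0.598 with the Sertoli markers, 0.170 and 0.220 without the highest chain of the class (Col3a1 or Lamb1), and 0.232 and 0.275 with d16 in place of d12. It was 0.114 for fibrillar chains without Col2a1. The median log2 difference was -3.90 and -3.49 with equal sums, -3.54 and -3.10 with upper quartiles, and -1.14 and -0.73 with Sertoli markers. These 3 scalings shift both medians nearly alike, so they cannot show whether the order of the medians is stable. With 1 FPKM added the medians were -2.09 and -1.78, the fibrillar one again the lower. The ratio of fibrillar to basement membrane sums at d12, d16, d24 and in adult testis was 0.993, 0.762, 0.683 and 0.771 without the highest chain of each class, where it turned below 1 at d12 and d16. It was 1.28, 1.01, 0.820 and 0.868 with Col7a1, Col15a1 and Col18a1 counted with the basement membrane, and 3.96, 2.87, 2.35 and 2.45 with the laminins left out. Without Col2a1 it was 0.916 at d24 and 0.884 in adult testis. The number of chains at least 2-fold lower was 14 with the Sertoli markers and 21 (4-fold threshold) to 36 (no filter) under the other alternatives, and the number at least 2-fold higher 4 to 9. Matching shares of all genes were not counted under these alternatives, so the counts cannot be set against a background. The alternatives with d16 in place of d12 and without Col2a1 were chosen after seeing the data.

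No paired analysis was possible because each stage has 1 library, and leaving out a library would leave no value for its stage. Depth limits the lowest chains: 3 fragments on a transcript of 1 kb correspond to 0.240 FPKM at d12 and d16, 0.137 at d24 and 0.336 in adult testis. Differences between animals of one stage are not covered by any value given here.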
